A study of Homo sapiens with 15 samples.

Results

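Levels of 10 genes of the insulin-like growth factor (IGF) axis were described in triple negative breast cancer cell lines: the binding proteins IGFBP2, IGFBP3, IGFBP4, IGFBP5, IGFBP6 and IGFBP7, the protease PAPPA, the stanniocalcins STC1 and STC2, and the receptor IGF1R. They were taken by symbol from a table of 33158 genes, and all 10 were found. The genes were chosen by their levels in the sorted fractions, which were known when the list was drawn up; PAPPA was selected on its opposite differences between the fractions of SUM149 and HCC1937. The fraction values of the 10 genes are therefore a description, with no test.

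Cancer stem cells (CSCs, sorted as CD44+/CD24-/low cells) were compared with the remaining non-CSCs in SUM149 and in HCC1937, and SUM159, which was not sorted and carries the label of cancer stem cells, was a further group. Each of the 5 groups had 3 libraries of poly(A) RNA, 15 in all, and the values are FPKM, which scale the fragments of a gene to its length and to the size of the library. All 3 lines are labelled triple negative. SUM149 and SUM159 were grown in F12 with serum, insulin and hydrocortisone and HCC1937 in RPMI with serum, so line and medium cannot be told apart where HCC1937 is compared with the other lines. Each line is an established culture and 1 model of the disease, and no label says that the 3 libraries of a group came from separate cultures, so p-values measure the spread between these libraries, which may be technical.

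As background, IGF1 and IGF2 signal through the receptor tyrosine kinase IGF1R, and most of the circulating or secreted ligand is held by binding proteins that limit its access to the receptor. PAPPA is a secreted metalloproteinase that cleaves IGFBP4, IGFBP5 and, by some reports, IGFBP2 and so frees ligand near cells, and the stanniocalcins STC1 and STC2 inhibit PAPPA. IGFBP7 is a related secreted protein that binds IGFs weakly, and the axis is known in breast cancer for growth and survival signalling.

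The promoters of PAPPA and of its substrates IGFBP4 and IGFBP5 are shown because these 2 substrates were both higher in the CSC fraction of each sorted line while the protease differed in opposite directions. The sequences are the 250 bases before the RefSeq start (GRCh38.p14), 5′ to 3′ on the strand of the gene: chr9:116153541-116153790 (+) for PAPPA, chr17:40443200-40443449 (+) for IGFBP4 and chr2:216695550-216695799 (-) for IGFBP5. None of these bases lies in an annotated exon of GENCODE release 29. Capitals mark matches, on either strand, to a TATA box (TATAAA), a GC box (GGGCGG), an AP-1 site (TGANTCA) or an E2 box (CACCTG), none of which contains another.
PAPPA: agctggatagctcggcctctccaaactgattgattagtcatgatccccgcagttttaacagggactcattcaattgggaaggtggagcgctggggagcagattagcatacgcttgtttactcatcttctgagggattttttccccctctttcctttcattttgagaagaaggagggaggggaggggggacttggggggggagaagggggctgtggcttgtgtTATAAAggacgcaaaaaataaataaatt
IGFBP4: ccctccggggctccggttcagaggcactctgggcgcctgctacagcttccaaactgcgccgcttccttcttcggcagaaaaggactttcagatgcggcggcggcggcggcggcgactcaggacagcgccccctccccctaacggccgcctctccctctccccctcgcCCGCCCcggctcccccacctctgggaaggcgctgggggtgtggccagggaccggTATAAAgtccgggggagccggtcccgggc
IGFBP5: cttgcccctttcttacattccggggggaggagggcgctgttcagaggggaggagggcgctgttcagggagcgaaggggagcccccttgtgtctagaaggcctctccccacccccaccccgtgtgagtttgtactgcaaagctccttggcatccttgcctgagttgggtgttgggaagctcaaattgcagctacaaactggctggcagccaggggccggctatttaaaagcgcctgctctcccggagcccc

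The letters TATAAA begin 28 bases before the start of PAPPA and 29 bases before that of IGFBP4, and they occur in 10.7% of the 35116 promoter windows searched. The IGFBP4 window also holds 1 GC box, a motif found in 42.6% of windows. The IGFBP5 window holds no match to the 4 motifs; AP-1 sites occur in 6.6% and E2 boxes in 17.5% of windows. The PAPPA window is 48% G or C, against 71.6% for IGFBP4 and 61.2% for IGFBP5. IGFBP2 and IGFBP5 are neighbours on chromosome 2, 7668 bases apart on opposite strands.

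The sort marker CD24 was 7.97, 7.64 and 7.61 FPKM in the SUM149 CSC libraries and 147, 137 and 134 in the non-CSC libraries. In HCC1937 it was 23.6, 22.5 and 23.9 against 167, 141 and 142 FPKM, and in SUM159 0.759, 0.682 and 0.745 FPKM, so the libraries of both sorted lines carry the label's difference. CD44 averaged 84.4 against 64.5 FPKM in SUM149 and 106 against 97.8 in HCC1937, where the ranges overlapped; in SUM159 it averaged 28.8 FPKM, below every sorted group.

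Markers of epithelial and mesenchymal state moved with the fractions of the sorted lines. The sum of EPCAM, KRT8, KRT18 and CDH1 was 79.9, 86.4 and 83.0 FPKM in SUM149 CSCs and 536, 529.8 and 538 in non-CSCs, and 503, 466 and 418 against 1403, 1421 and 1212 FPKM in HCC1937; all 4 genes were lower in the CSCs of both lines. VIM and ZEB1 summed to 2016, 2193 and 2082 FPKM in SUM149 CSCs against 226, 223 and 285 in non-CSCs, and to 1019, 889 and 865 against 122, 189 and 162 FPKM in HCC1937, nearly all of it VIM. In the unsorted SUM159, VIM averaged 1078 FPKM, but ZEB1 averaged 0.204, below every sorted group. KRT8 and KRT18 averaged 132 and 153 FPKM there, above SUM149 CSCs, while EPCAM and CDH1 averaged 0.0467 and 0.0681. The leukocyte marker PTPRC was at most 0.0986 FPKM in any library and PECAM1 at most 0.721 FPKM. The part of these marker differences in the values of the 10 genes was not tested, and more cells of a kind cannot be told apart from more RNA per cell.

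PAPPA (chr9:116153804-116402322, plus strand) was low in every group, and its order differed between the lines. In SUM149 it was 0.185, 0.137 and 0.163 FPKM in the CSC libraries and 2.53, 2.50 and 2.64 in the non-CSC libraries, 15.8-fold lower in CSCs. HCC1937 gave 0.710, 0.656 and 0.757 FPKM in CSCs and 0.0736, 0.175 and 0.173 in non-CSCs, 5.04-fold higher in CSCs. The libraries of the fractions were fully separated in each line, with opposite directions. SUM159 held 0.0345, 0.0218 and 0.0150 FPKM, below every other library. From the highest group to the lowest the order was SUM149 non-CSC, HCC1937 CSC, SUM149 CSC, HCC1937 non-CSC and SUM159, with overlapping ranges only for SUM149 CSC and HCC1937 non-CSC. On the log2(FPKM + 0.1) scale, which understates changes of low values, the CSC minus non-CSC difference was -3.35 (SE 0.082) in SUM149 and 1.78 (SE 0.20) in HCC1937. PAPPA-AS1, an antisense gene inside PAPPA, was at most 0.0691 FPKM; whether strand was used in counting is not given in the sources used here.

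**Figure D1:**
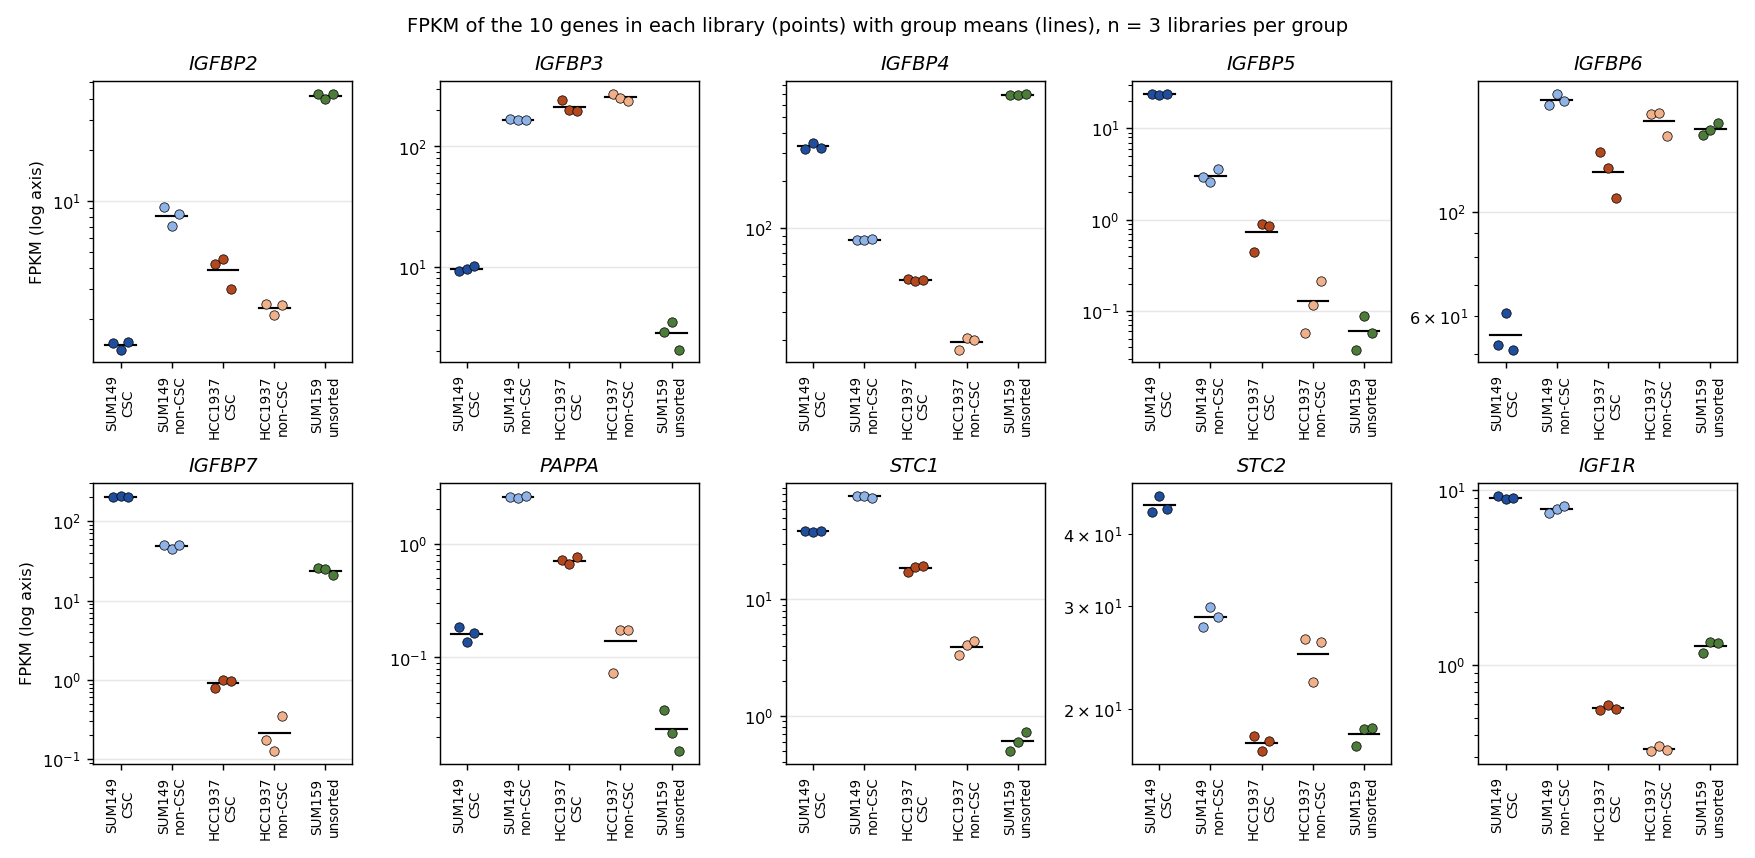
FPKM (log axis, a different range in each panel) of each of the 10 genes in the 5 groups; points are libraries and lines are means of 3. PAPPA is highest in SUM149 non-CSCs and lowest in SUM159, and IGFBP7 is above 20 FPKM in SUM149 and SUM159 and near or below 1 FPKM in HCC1937.

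IGFBP4 (chr17:40443461-40457731, plus strand), the best known PAPPA substrate, was abundant and higher in the CSCs of both lines. It was 317, 344 and 322 FPKM in SUM149 CSCs and 84.2, 84.4 and 85.8 in non-CSCs, 3.86-fold higher. For HCC1937 the values were 47.9, 46.5 and 47.2 FPKM against 17.3, 20.6 and 20.0, 2.45-fold higher in CSCs. SUM159 held 688, 695 and 702 FPKM, the highest as deposited. With every library rescaled to the same sum, IGFBP4 made up 0.106%, 0.108% and 0.111% of the sum in SUM159 and 0.109%, 0.109% and 0.107% in SUM149 CSCs, so the 2 groups overlapped.

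IGFBP5 (chr2:216672105-216695525, minus strand), also a PAPPA substrate, had the same direction at lower levels. SUM149 CSCs held 23.9, 23.1 and 23.7 FPKM and non-CSCs 2.93, 2.60 and 3.61, a 7.73-fold difference. HCC1937 CSCs held 0.448, 0.893 and 0.855 FPKM and non-CSCs 0.0575, 0.117 and 0.213, 5.67-fold higher in CSCs. Replicate 1 was the lowest library in both HCC1937 fractions. SUM159, at 0.0379, 0.0876 and 0.0571 FPKM, overlapped the HCC1937 non-CSCs.

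The ratio of IGFBP4 to PAPPA FPKM was 2068 ± 405 (SD, n = 3) in SUM149 CSCs and 33.2 ± 0.594 in non-CSCs. In HCC1937 it was 66.9 ± 4.33 in CSCs and 156 ± 68.2 in non-CSCs. Within each line, the ratio was higher in the fraction with less PAPPA, the CSCs of SUM149 and the non-CSCs of HCC1937, and it rests on low PAPPA values there. PAPPA was chosen on the direction of its fraction differences, so this order is not independent of the choice. In SUM149 CSCs PAPPA was 15.8-fold lower and IGFBP4 3.86-fold higher, which raises the ratio whatever the sizes. In HCC1937 CSCs both were higher, PAPPA 5.04-fold and IGFBP4 2.45-fold, which lowers it. Nothing further is read from the order of the ratios. SUM159, with the least PAPPA, had the highest ratio, from 19928 to 46753.

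IGFBP7 (chr4:57030773-57110385, minus strand) was also higher in CSCs. It was 199, 210.3 and 201 FPKM in SUM149 CSCs and 50.0, 44.4 and 50.2 in non-CSCs, 4.22-fold higher. In HCC1937 the fold was 4.26, from 0.176, 0.126 and 0.348 FPKM in non-CSCs to 0.800, 1.01 and 0.964 in CSCs, and SUM159 held 25.4, 25.0 and 21.1 FPKM. On the log2 scale the difference was 2.08 (SE 0.071) in SUM149 and 1.75 (SE 0.26) in HCC1937, where a pseudocount of 1 left 0.66. IGFBP7-AS1, which overlaps IGFBP7 on the other strand, was at most 0.135 FPKM in any library.

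IGFBP3 (chr7:45912245-45921874, minus strand), the main carrier of IGFs in serum, showed the largest fraction difference of the 10 genes in SUM149. It was 9.21, 9.59 and 10.1 FPKM in CSCs and 168, 167 and 167 in non-CSCs, 17.4-fold lower. HCC1937 held 242, 199.8 and 198 FPKM in CSCs and 274, 255 and 239 in non-CSCs, and the ranges overlapped. SUM159 was lowest at 2.86, 3.47 and 2.05 FPKM.

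IGFBP6 (chr12:53097436-53102345, plus strand), which prefers IGF2, was lower in the CSCs of both lines. The means were 54.7 ± 5.50 FPKM (SD, n = 3) in SUM149 CSCs and 173 ± 4.96 in non-CSCs, 3.15-fold lower. In HCC1937 they were 122 ± 13.6 and 156 ± 9.72 FPKM, 1.28-fold lower in CSCs. SUM159, at 149.6 ± 4.52 FPKM, overlapped HCC1937 non-CSCs. Apart from SUM149 CSCs, every group averaged above 100 FPKM.

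IGFBP2 (chr2:216632828-216664436, plus strand), which binds IGF1 and IGF2 and can also bind integrins, differed in opposite directions. SUM149 CSCs held 1.44, 1.32 and 1.47 FPKM and non-CSCs 9.11, 7.05 and 8.28, 5.79-fold lower in CSCs. HCC1937 CSCs held 4.21, 4.54 and 2.99 FPKM and non-CSCs 2.46, 2.10 and 2.43, 1.68-fold higher in CSCs. SUM159 was the highest group at 42.8, 39.7 and 42.4 FPKM. No neighbouring groups in the order of IGFBP2 levels overlapped.

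The 6 binding protein genes summed to 620.4 ± 25.7 FPKM (SD, n = 3) in SUM149 CSCs, 484 ± 2.20 in SUM149 non-CSCs, 388 ± 37.3 in HCC1937 CSCs, 434 ± 24.6 in HCC1937 non-CSCs and 913 ± 8.90 in SUM159. IGFBP4 made up 52.8% ± 0.211 of the sum in SUM149 CSCs and 17.5% ± 0.101 in non-CSCs. IGFBP3 made up 1.55% ± 0.0919 and 34.5% ± 0.232 in the same groups. The sum was thus led by IGFBP4 and IGFBP7 in SUM149 CSCs and by IGFBP6 and IGFBP3 in non-CSCs. In HCC1937 IGFBP3 led in both fractions, with 55.0% ± 1.75 in CSCs and 59.0% ± 1.12 in non-CSCs, and the share of IGFBP4 was 12.2% ± 1.04 against 4.46% ± 0.587. In SUM159 IGFBP4 alone held 76.1% ± 0.0548. With libraries rescaled to equal sums, the 6 genes made up 0.205% of all FPKM in SUM149 CSCs, 0.155% in SUM149 non-CSCs, 0.142% in SUM159, 0.124% in HCC1937 non-CSCs and 0.121% in HCC1937 CSCs, so the sum of SUM159, the largest as deposited, was not the largest there.

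**Figure D2:**
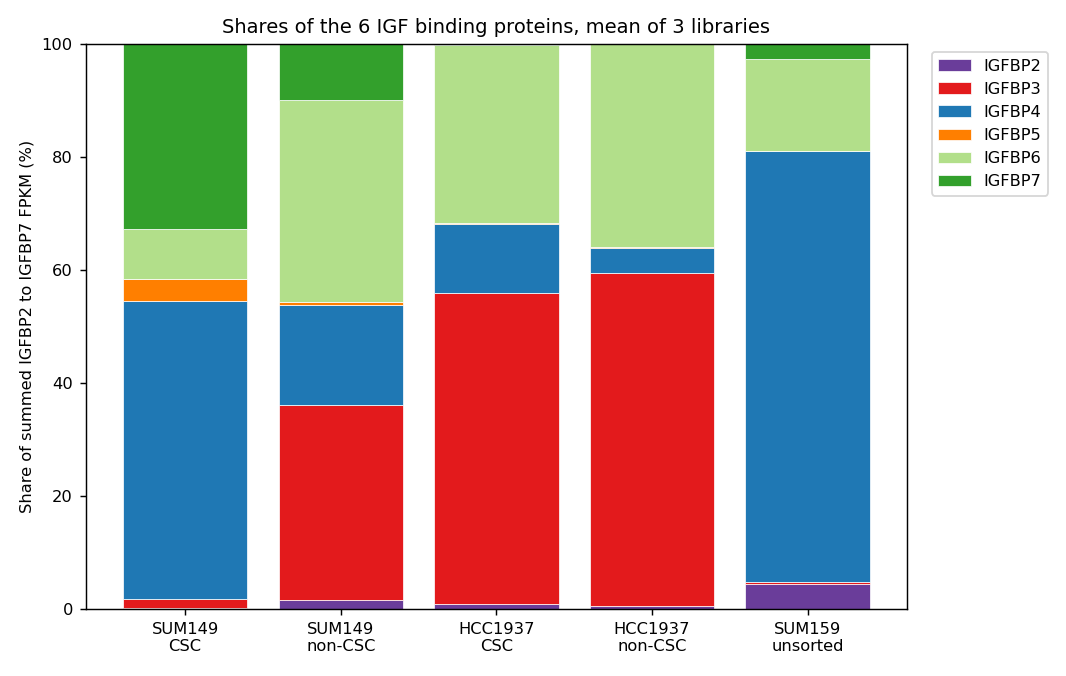
Stacked bars of the mean share (%) that each of IGFBP2 to IGFBP7 holds of their summed FPKM in each group of 3 libraries. IGFBP4 leads in SUM149 CSCs and SUM159, and IGFBP3 in both HCC1937 fractions.

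The stanniocalcins, which inhibit PAPPA, each differed in opposite directions between the lines, and oppositely to each other. STC1 (chr8:23841915-23854807, minus strand) was 38.4, 37.7 and 38.9 FPKM in SUM149 CSCs and 77.7, 77.5 and 73.6 in non-CSCs, 1.99-fold lower. In HCC1937 it was 17.3, 18.8 and 19.5 FPKM in CSCs and 3.36, 4.06 and 4.38 in non-CSCs, 4.71-fold higher. STC1 thus had the direction of PAPPA in both lines, and SUM159 was lowest at 0.496, 0.596 and 0.728 FPKM.

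STC2 (chr5:173314713-173329503, minus strand), which binds PAPPA covalently, had smaller differences. It was 43.5, 46.5 and 44.2 FPKM in SUM149 CSCs and 27.6, 29.9 and 28.8 in non-CSCs, 1.55-fold higher. In HCC1937 it was 18.0, 16.9 and 17.6 FPKM in CSCs and 26.4, 22.3 and 26.0 in non-CSCs, 1.42-fold lower. SUM159, at 17.2, 18.5 and 18.5 FPKM, overlapped HCC1937 CSCs. The STC1 to STC2 ratio was 0.858 ± 0.0405 (SD, n = 3) in SUM149 CSCs, 2.65 ± 0.138 in SUM149 non-CSCs, 1.06 ± 0.0845 in HCC1937 CSCs, 0.159 ± 0.0287 in HCC1937 non-CSCs and 0.0334 ± 0.00533 in SUM159. STC1 exceeded STC2 in all 3 libraries of SUM149 non-CSCs, the group with the highest PAPPA, and in HCC1937 CSCs the ratio lay between 0.963 and 1.11.

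IGF1R (chr15:98648539-98964530, plus strand), the receptor, was 9.32, 8.87 and 8.98 FPKM in SUM149 CSCs and 7.38, 7.82 and 8.09 in non-CSCs. It was 0.556, 0.592 and 0.561 FPKM in HCC1937 CSCs and 0.322, 0.347 and 0.327 in non-CSCs, and 1.17, 1.35 and 1.34 in SUM159. The CSC fraction was 1.17-fold and 1.72-fold higher in SUM149 and HCC1937. The gap between SUM149 and HCC1937 was larger than the gap between the fractions of either line. SUM159 lay above HCC1937 CSCs as deposited and overlapped them at equal sums.

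Set side by side, the fractions of SUM149 did not overlap for 10 of 10 genes, where 78.7% of the 16037 genes tested in that line also did not overlap, with 5 genes higher and 5 lower in CSCs. In HCC1937 they did not overlap for 9 of 10 genes, against 43.4% of 15582 genes, with 7 higher and 2 lower; IGFBP3 overlapped. IGFBP2, PAPPA, STC1 and STC2 were apart in opposite directions in the 2 lines, 4 of 10 genes against 12.2% of the 14423 genes tested in both lines. IGFBP4, IGFBP5, IGFBP6, IGFBP7 and IGF1R were apart in the same direction, 5 of 10 against 25.6%. Because the 10 genes were chosen by these values, nothing is read from the counts. The log2 differences ranged from -4.10 (SE 0.057) for IGFBP3 to 2.92 (SE 0.12) for IGFBP5 in SUM149, and from -0.50 (SE 0.090) for STC2 to 2.21 (SE 0.12) for STC1 in HCC1937, where a pseudocount of 0.01 put IGFBP5 and PAPPA at 2.52 and 2.34 and, by fold of means, IGFBP5 and PAPPA also lay above STC1.

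**Figure D3:**
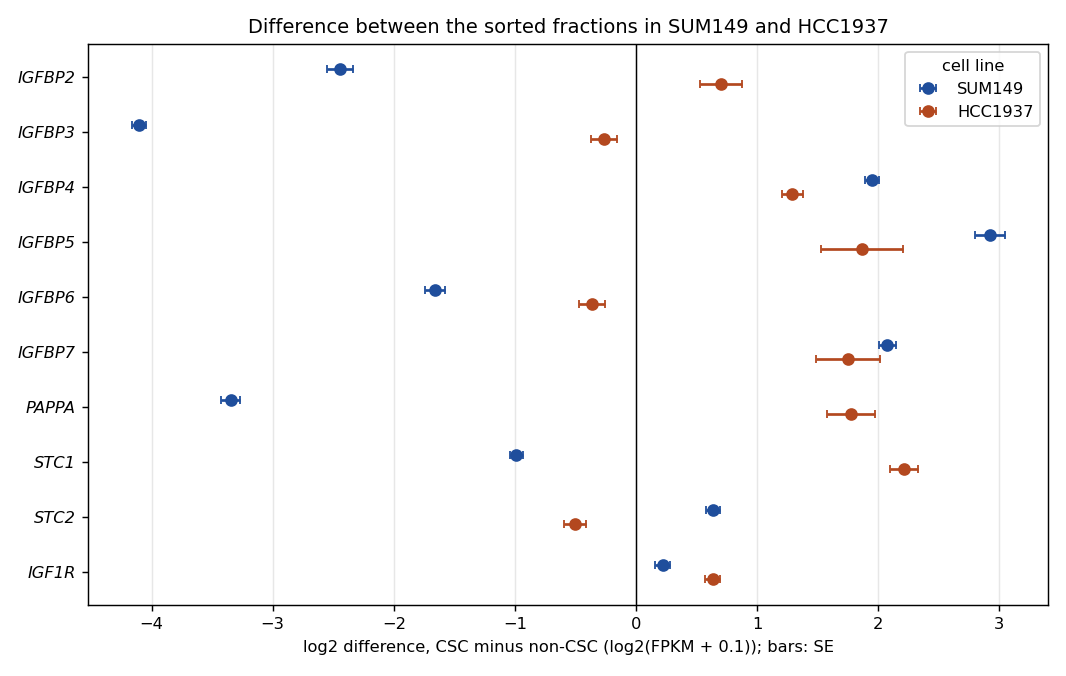
CSC minus non-CSC difference (log2(FPKM + 0.1), bars are SE from the limma fit over the 6 libraries of each line) of each of the 10 genes in SUM149 and HCC1937. IGFBP2, PAPPA, STC1 and STC2 lie on opposite sides of 0 in the 2 lines.

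Differences between lines set the average of both fractions of a sorted line against the other line. They are built from the fraction levels by which the 10 genes were chosen, so they too are a description, with no test. SUM159 has no sorted fractions, so its differences mix line and fraction. The values that follow are log2 differences with their SE from limma over the 15 libraries. IGFBP3 was higher in HCC1937 than in SUM149, by 2.53 (SE 0.10). The gap was wide in CSCs, at 213 against 9.63 FPKM, and narrow in non-CSCs, at 256 against 167. IGFBP4, IGFBP5, IGFBP7, STC1 and IGF1R were lower, with IGFBP7 at -7.48 (SE 0.14), IGF1R at -3.98 (SE 0.046) and IGFBP5 at -4.35 (SE 0.18). PAPPA was at -0.93 (SE 0.11) and STC2 at -0.78 (SE 0.051), which became -1.11 and -1.01 with a GC trend removed. The PAPPA average joins gaps of opposite direction. Its means were 0.708 FPKM in HCC1937 and 0.162 in SUM149 for CSCs, and 0.140 and 2.56 for non-CSCs.

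Against SUM149, IGFBP2 and IGFBP4 were higher in SUM159, by 3.57 (SE 0.12) and 2.06 (SE 0.058). STC1 was lower, at -6.27 (SE 0.10), and PAPPA was at -2.75 (SE 0.13). IGFBP3, IGFBP5, IGFBP7 and IGF1R were also lower. The SUM149 fractions gave unlike distances to SUM159: PAPPA was at -1.08 against the CSCs and -4.43 against the non-CSCs, and IGFBP3 at -1.78 and -5.88. Against HCC1937, IGFBP2, IGFBP4, IGFBP7 and IGF1R were higher in SUM159, and IGFBP3, IGFBP5, PAPPA and STC1 were lower. IGFBP3 was at -6.36 (SE 0.13), IGFBP4 at 4.52 (SE 0.058) and PAPPA at -1.82 (SE 0.13). Over all genes tested, 40.2% differed between HCC1937 and SUM149 by limits of 0.05 on the adjusted p and 1 on the size of the log2 difference, 64.6% between SUM159 and SUM149 and 65% between SUM159 and HCC1937. Of the 10 genes 6, 8 and 8 met these limits, and nothing is read from the counts because of how the genes were chosen.

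The SUM159 libraries stood apart from the others in scale. Their FPKM summed to between 634746 and 652082 over all genes, against 291276 to 366532 in the 12 sorted libraries, and 8534 to 8670 genes exceeded 1 FPKM, against 11249 to 11997. The median gene was lower in SUM159 by a log2 difference of -0.84 against SUM149, which became -0.11 with upper quartile scaling and -1.60 with rescaling to equal sums, and by -0.91 against HCC1937, which became -0.01 and -1.61. IGFBP6 and STC2 changed sign against both lines under at least 1 such scaling, so no direction is given for them. Rescaled to equal sums, SUM159 no longer overlapped HCC1937 non-CSCs for IGFBP5 and IGFBP6 or HCC1937 CSCs for STC2, and was lower in each case. Over all alternatives, IGFBP4 ranged from 0.96 to 3.08 and PAPPA from -4.33 to -0.99 against SUM149. Against HCC1937, IGF1R ranged from 0.53 to 2.94, IGFBP5 from -2.13 to -0.14 and PAPPA from -3.28 to -0.45.

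**Figure D4:**
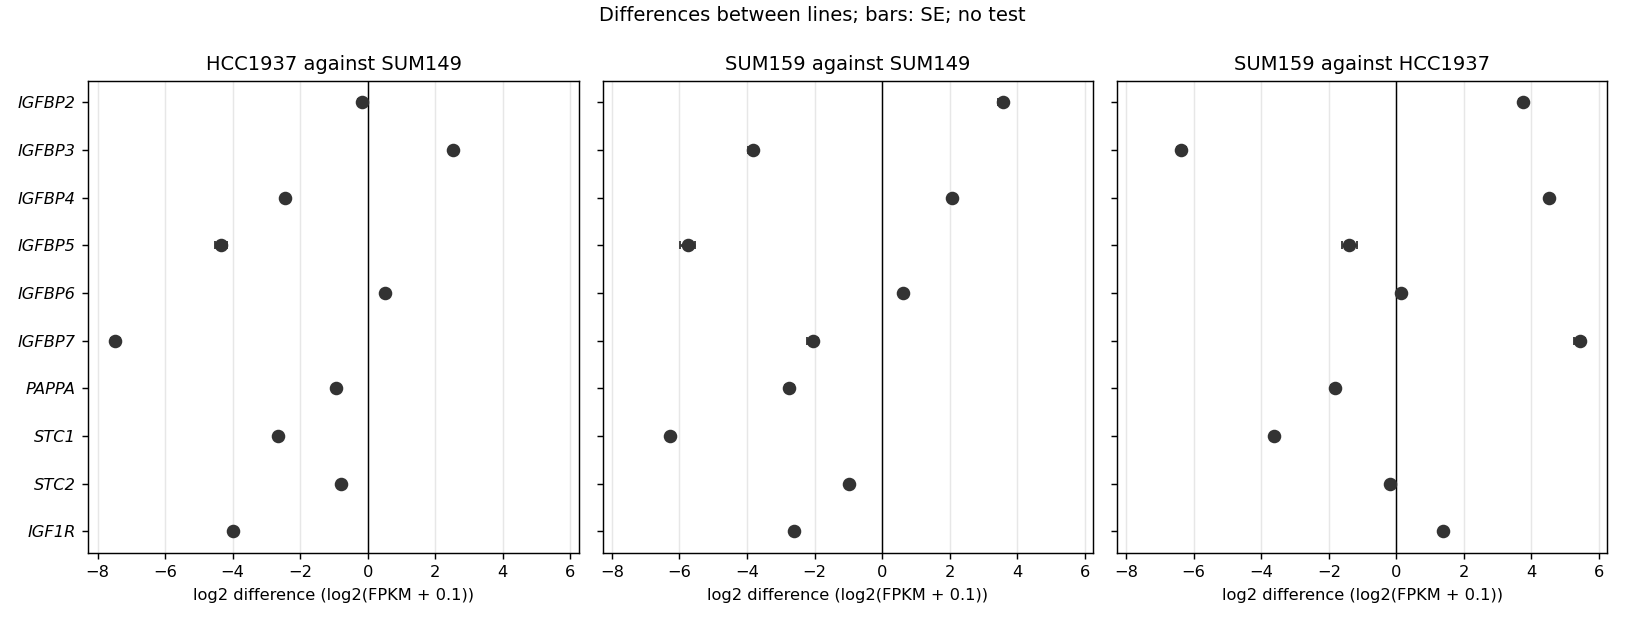
Log2 difference (log2(FPKM + 0.1), bars are SE, n = 15 libraries in the fit) of the 10 genes between lines, with no test. IGFBP7 is lower in HCC1937 than in either other line, and IGFBP2 and IGFBP4 are higher in SUM159 than in either other line.

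The genes around the 10 were followed with 41 other genes of the axis in 6 lists, chosen with earlier results of these data known. The listed values of the ligands were near 0: INS was at 0 in all 15 libraries, IGF1 was at most 0.0160 FPKM and IGF2 at most 8.85e-06 FPKM. Of 264192 values above 0 in the table, 1213 were under 0.0001 FPKM and only 95 lay between 0.0001 and 0.001, so values as small as those of IGF2 form a group of their own. How the quantifier shares fragments among overlapping genes is unknown, and the values of IGF2 are not read as its absence. Between the fractions of SUM149, 12 of the 32 genes that passed the filter on low values were called by limma (an adjusted p of at most 0.05 after Benjamini-Hochberg adjustment over all genes tested, and an absolute log2 difference of at least 1), 6 higher and 6 lower, where 34.9% of all genes were called; their median difference was 0.15, against -0.11 over all genes. In HCC1937, 4 of 31 were called, all higher, where 8.71% of all genes were called; their median was 0.06, against -0.03. In SUM149 the called genes came from all 6 lists, and in HCC1937 from 3.

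GRB10, an adaptor that binds and restrains the insulin and IGF1 receptors, rose in the CSCs of both lines, by a log2 difference of 3.21 (SE 0.083, adjusted p = 2.88e-06) in SUM149 and 1.19 (SE 0.077, adjusted p = 0.000442) in HCC1937. It was 134, 135 and 136 FPKM in SUM149 CSCs against 13.2, 14.5 and 16.0 in non-CSCs. GRB14, a related adaptor, was lower in SUM149 CSCs, at -3.41 (SE 0.35, adjusted p = 0.000289). Its difference was -1.67 with a pseudocount of 1 and -4.04 with a pseudocount of 0.01. ADAM12, a metalloproteinase that can cleave IGFBP3 and IGFBP5, rose by 1.84 (SE 0.11, adjusted p = 3.07e-05) in SUM149 and 2.20 (SE 0.19, adjusted p = 0.00103) in HCC1937. MMP7, another protease of binding proteins, was 2.46, 1.88 and 2.53 FPKM in SUM149 CSCs and 48.0, 42.2 and 49.3 in non-CSCs, a difference of -4.29 (SE 0.13, adjusted p = 3.98e-06). Thus the other proteases of binding proteins did not share 1 direction in SUM149.

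ESM1, a secreted proteoglycan with an IGFBP domain, rose in both lines, by 1.94 (SE 0.14, adjusted p = 6.07e-05) in SUM149 and 2.69 (SE 0.15, adjusted p = 0.000276) in HCC1937, where it averaged 57.7 FPKM in CSCs. HTRA1, a secreted serine protease with an IGFBP domain, rose in HCC1937 by 1.64 (SE 0.14, adjusted p = 0.000978). KAZALD1, also with an IGFBP domain, was lower in SUM149 CSCs, at -1.38 (SE 0.075, adjusted p = 2.34e-05). MTOR, a kinase of the signalling list, was lower in SUM149 CSCs, at -1.15 (SE 0.074, adjusted p = 4.35e-05). With a pseudocount of 1, ESM1 and MTOR in SUM149 and GRB10 in HCC1937 stayed under the fold limit, at 0.86, -0.98 and 0.96. The study set a stricter limit of 0.0001 on its false discovery rate. With that limit on the adjusted p, limma as run here called 10 of these genes in SUM149 and 0 in HCC1937. In HCC1937, 14 had an unadjusted p of at most 0.05. The study itself reported more differing genes in HCC1937 than in SUM149, unlike the 8.71% and 34.9% of all genes called here at 0.05. The share of all genes at 0.0001 is not given, so nothing is read from the 0.

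**Figure D5:**
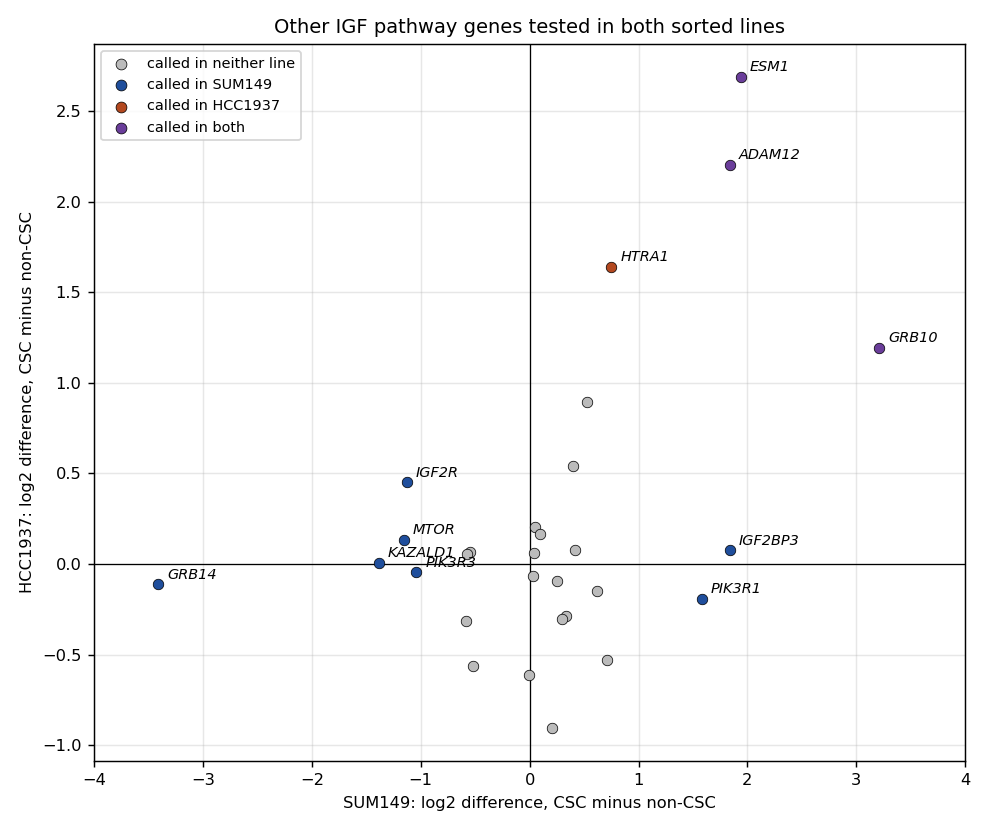
CSC minus non-CSC difference (log2(FPKM + 0.1)) in SUM149 (x axis) and HCC1937 (y axis) of the 29 other axis genes tested in both lines, coloured by the calls. ADAM12, ESM1 and GRB10 were called in both lines and were higher in CSCs.

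The genes whose pattern over the 15 libraries was most like that of PAPPA, among 12155 genes, were SORCS2 (Pearson r = 0.990), IL24 (r = 0.977), GCNT1 (r = 0.973), ADAMTS4 (r = 0.972) and TM4SF1 (r = 0.964). The points share groups of 3 libraries, so r describes the 5 group levels and carries no p, and the choice by r largely fixes that their order of groups is like that of PAPPA. IL24 averaged 1.23 and 21.3 FPKM in the CSCs and non-CSCs of SUM149, 3.28 and 0.741 in those of HCC1937 and 0.0937 in SUM159.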

How the data were processed

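The data are poly(A) RNA libraries of 15 samples. The authors deposited FPKM for 33158 gene symbols; the submitters' processing notes name Bowtie2 and GRCh38, and the quantification tool and annotation are not given in the sources used here. Low values were not whole multiples of a common step (the commonest ratio fitted 0.637% of 2513 genes), so the depth is unknown and no counting error is given. The members and lists were chosen with earlier results of these data known.

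A pseudocount of 0.1 was added to FPKM before taking log2, and linear models were fitted by lmFit and eBayes of limma 3.58.1 under R 4.3.3, after the code was tested on simulated data. The fractions of each sorted line were fitted over its 6 libraries, and lines over all 15 libraries with 1 mean per group, for genes averaging 0.1 FPKM or more, with Benjamini-Hochberg adjustment over all genes tested. A test of the 10 genes between lines was planned, but no p is given for it, since their levels had a part in their choice. Named genes were all 10 members, the pathway genes called in a line (all if 8 or fewer, otherwise the 4 with the largest fold change in each direction; 1 of them is not reported here), and the 5 genes with the highest Pearson correlation with PAPPA among genes averaging 1 FPKM or more. IGF1, IGF2, INS and 2 antisense genes were named after their values were seen, and the distances of SUM159 to single fractions and the count of small values were added then too. Coordinates are from GENCODE release 29 and promoters from RefSeq. The search for promoters of members skipped chromosome 8, which holds STC1, and found them for 8 of the 10 members. Tables and figures used Python 3.11.15, pandas 2.3.3, numpy 2.4.6 and matplotlib 3.10.9. Alternatives were the pseudocount, the filter, 4 scalings including a GC trend, eBayes with trend and robust, the p and fold limits, the replicate number as a block, a fit over all libraries and each library left out.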

Additional observations from a re-analysis of the deposited data

Results flagged for a closer look

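For 12 genes, every CSC library lay on one side of every non-CSC library in SUM149 and on the other side in HCC1937; the differences between the lines were not tested. They were 4 of the 10 genes and 8 of the 29 other axis genes tested in both lines, where 1754 of 14423 genes (12.2%) had this pattern. The genes and lists were chosen with earlier results of these data known, so nothing is read from these counts. Scaling moved the second count: with equal sums 3 of the 29 kept the pattern, IGF2R, CTSD and FOXO1, and with upper quartile scaling or quantile normalization 6, while the 4 of the 10 genes kept it throughout. Among the 10 genes these were, as the SUM149 log2 difference minus that of HCC1937, PAPPA at -5.13, STC1 at -3.20, IGFBP2 at -3.15 and STC2 at 1.14. Among the other genes of the axis, again untested, these were IGF2R at -1.58, MTOR at -1.29, CTSD at 1.24, FOXO1 at 1.11, RPS6KB1 at 0.76, INSR at 0.62, IRS2 at 0.61 and AKT2 at 0.34. IGF2R, the receptor that clears IGF2, thus had the direction of PAPPA and STC1 in both lines, and CTSD, a lysosomal protease, that of STC2.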

How the results depend on the processing

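No fraction difference of the 10 genes changed sign under any alternative run. PAPPA in SUM149 moved from -3.35 to -3.91 with a pseudocount of 0.01, -1.61 with a pseudocount of 1 and -2.89 with quantile normalization, and ranged from -3.41 to -3.28 with each library left out; in HCC1937 it moved from 1.78 to 2.34 and 0.58 with those pseudocounts, and ranged from 1.56 to 1.89. The pseudocount weighs most where values are near it by construction. Without the fold limit, 26 of 32 pathway genes were called in SUM149, where 11993 of all 16037 genes were. In HCC1937, 12 of 31 were called, where 3985 of 15582 genes were. At an adjusted p of at most 0.0001, 0 were called in HCC1937, and the share of all genes at that limit is not given. A pseudocount of 1 gave 9 in SUM149, where 1169 of all genes were called higher and 1940 lower. It gave 3 in HCC1937, where 159 were called higher and 467 lower. Rescaling to equal sums gave 11 and 6. There 2168 of all genes were called higher and 3422 lower in SUM149, and 553 and 794 in HCC1937. With each library left out, 11 to 12 pathway genes were called in SUM149 and 4 to 5 in HCC1937, and 6, 8 to 9 and 8 members passed both limits between HCC1937 and SUM149, SUM159 and SUM149, and SUM159 and HCC1937, counts that are a description only. With a pseudocount of 1, 5 members passed them between SUM159 and HCC1937. IGFBP5 at -0.39, PAPPA at -0.45 and IGF1R at 0.66 then fell short of the fold limit, and the cause was not tested.

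Scaling moved the split of all calls: genes higher in CSCs were 36.5% of calls in SUM149 and 51.2% with quantile normalization, 31.1% in HCC1937 and 41.1% with equal sums, and genes higher in SUM159 were 28.3% against SUM149, but 10.1% with equal sums and 50.5% with quantile normalization, and 26.5% against HCC1937, but 12.7% and 49%. The replicate block gave 12 pathway genes in SUM149 and 5 in HCC1937. Library titles share a replicate number across the fractions of a line. Deviations from group means in same-numbered libraries correlated at 0.088, 0.023 and 0.08 in SUM149 and -0.078, -0.035 and -0.009 in HCC1937. Differently numbered libraries gave -0.115 to 0.037 in SUM149 and -0.048 to 0.082 in HCC1937. With 3 libraries per group, these values cannot decide whether the numbers pair the fractions. STC2 between SUM159 and SUM149 moved from -0.98 to -2.05 with equal sums, -1.07 with a GC trend removed and 0.03 with upper quartile scaling. PIK3R3 in SUM149, at -1.04, fell short of the fold limit with a pseudocount of 1 (-0.89), upper quartile scaling (-0.96), quantile normalization (-0.90) and, by under 0.01, with equal sums, and without CSC replicate 3 (-0.99) or non-CSC replicate 2 (-0.99). With a pseudocount of 0.01, IGFBP5 in SUM159 lay further below SUM149, at -6.96, than STC1. Depth is unknown, so values near 0.1 FPKM carry an unknown counting error.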
